A study of Mus musculus with 24 samples.

Results

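The 8 genes of bile acid transport and sensing were measured in 24 male IL-10 KO mice, on arrays of the proximal colon: Slc51a, Slc51b, Fabp6, Slc10a2, Nr1h4, Gpbar1, Nr0b2 and Fgf15. Every mouse was of the 129/SvEvIL-10 KO strain, which lacks interleukin-10 and develops colitis without further treatment, and was 3 months old. Its 129/SvEvIL-10 KO mother ate a purified diet with 5000 (high, H) or 25 (low, L) IU of vitamin D per kg through pregnancy and lactation, and the pup ate either diet from weaning on. The 4 groups are named by the pre-weaning diet first and the post-weaning diet second, HH, HL, LH and LL, with 6 mice and 6 arrays in each. No wild-type mouse was analysed here, so all values are those of colon without interleukin-10.

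The 8 genes had 8 probes, 1 for each gene, among the 45281 probes and 19057 named genes of the Illumina MouseWG-6 array. They were selected on the values of Slc51a and Slc51b by post-weaning diet on these same arrays, so the levels by post-weaning diet are given as a description, without a test. Levels are log2 intensities after quantile normalization, and a probe was called detected on an array where its detection score was above 0.99. Slc51a, Slc51b and Nr1h4 were detected on 24 of 24 arrays, Fabp6 on 17, and Slc10a2, Nr0b2, Fgf15 and Gpbar1 on 0. Values of undetected probes had a median of 7.09, and most lay between 6.91 and 7.32. Levels are not compared between genes, since each probe has its own brightness. In whole colon, fewer cells of a type and less RNA per cell cannot be told apart.

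Bile acids are taken up in the distal small intestine by Slc10a2, the apical sodium-dependent transporter, carried through the cell by Fabp6, the ileal bile acid binding protein, and released into the portal blood by a dimer of Slc51a and Slc51b, the organic solute transporters alpha and beta. Inside the cell they activate the nuclear receptor Nr1h4 (FXR), which induces Slc51a, Slc51b and Fabp6 as well as Nr0b2, a repressor, and Fgf15, a hormone that lowers bile acid synthesis in the liver. Gpbar1 (TGR5) senses them at the cell membrane, among other cells in hormone-secreting L cells. The vitamin D receptor also binds certain bile acids, and the colon meets mainly those that escaped uptake in the ileum.

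FXR with its partner RXR is known to bind an inverted repeat of AGGTCA with 1 base between the copies. The RefSeq windows from 250 bases before to 50 bases after the gene start (GRCm38.p6) are shown for the FXR target genes detected on these arrays, since these 3 are the exporter and the carrier measured here. Capitals mark stretches that match AGGTCA, any base and then TGACCT with at most 3 mismatches in its 12 fixed bases. The windows lie at chr16:32487830-32488129 for Slc51a, chr9:65422724-65423023 for Slc51b and chr11:43601513-43601812 for Fabp6, each on the minus strand, and are written 5′ to 3′.
Slc51a: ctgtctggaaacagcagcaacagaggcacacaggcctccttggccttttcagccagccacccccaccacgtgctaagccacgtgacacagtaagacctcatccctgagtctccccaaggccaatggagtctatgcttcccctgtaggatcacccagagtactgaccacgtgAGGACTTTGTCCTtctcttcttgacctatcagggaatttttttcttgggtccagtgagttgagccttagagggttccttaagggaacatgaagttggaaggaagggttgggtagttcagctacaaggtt
Slc51b: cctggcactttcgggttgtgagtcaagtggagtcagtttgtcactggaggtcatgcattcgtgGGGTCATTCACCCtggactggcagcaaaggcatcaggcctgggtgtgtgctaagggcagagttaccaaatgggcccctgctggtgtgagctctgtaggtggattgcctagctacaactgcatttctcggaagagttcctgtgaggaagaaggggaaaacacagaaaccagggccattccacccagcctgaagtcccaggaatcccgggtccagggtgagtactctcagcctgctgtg
Fabp6: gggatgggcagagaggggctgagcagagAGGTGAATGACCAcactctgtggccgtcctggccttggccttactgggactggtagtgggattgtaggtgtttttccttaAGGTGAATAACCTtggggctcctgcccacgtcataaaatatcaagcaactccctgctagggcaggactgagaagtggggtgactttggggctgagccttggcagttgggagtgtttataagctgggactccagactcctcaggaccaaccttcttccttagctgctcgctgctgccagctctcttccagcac

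Slc51a held 1 such stretch, AGGACTTTGTCCT, starting 79 bases before the gene start and with 3 mismatches, and Slc51b held GGGTCATTCACCC, 187 bases before it, also with 3. Fabp6 held 2, AGGTGAATGACCA and AGGTGAATAACCT, 222 and 142 bases before the start, with 2 mismatches each. The windows of Nr1h4, Slc10a2, Nr0b2 and Gpbar1 held 0, and 7 of the 8 genes had a window in the table. The repeat is its own reverse complement, so both strands are read at once, and the limit of 3 mismatches was set after the sequences were seen. Of 32851 promoter windows of this length, 11.42% held a match at this limit and 1.14% one with at most 2 mismatches. The vitamin D receptor motif, AGGTCA, any 3 bases and AGGTCA again, read on both strands at the same limit, was matched 2 times in Slc51a and 1 time in Fabp6, and in 22.39% of all windows. One of the matches in Slc51a, TTCTCTTCTTGACCT, begins at the last base of the capitals, and the others lie apart from them. These are matches of letters and not measured binding.

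Slc51a, the alpha subunit of the exporter, was lower on average on the high post-weaning diet, where all mice lay close together, while mice on the low diet lay apart from each other. The lowest, median and highest levels among HH mice were 8.23, 8.37 and 8.79, among HL mice 7.46, 9.58 and 9.89, among LH mice 7.84, 8.18 and 8.64, and among LL mice 8.42, 9.07 and 9.81. All 12 mice on the high post-weaning diet thus lay between 7.84 and 8.79, also the 6 whose mothers had eaten the low diet.
Of the mice on the low post-weaning diet, 7 lay above every mouse on the high diet. These were HL 2A at 9.57, HL 10 at 9.60, HL 14A at 9.71, HL 10B at 9.89, LL 3B at 9.59, LL 13 at 9.61 and LL 6 at 9.81, where the number after the group is the label of the mother. The other 5 were HL 8 at 7.46, HL 8C at 8.10, LL 2C at 8.42, LL 13A at 8.45 and LL 12 at 8.55, and lay within or below the range of the high-diet mice. No mouse lay between 8.79 and 9.57. This gap of 0.78 was the widest among the 24 ordered values, and the next was 0.38. Mice of both kinds of mothers stood on either side of it.

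**Figure D1:**
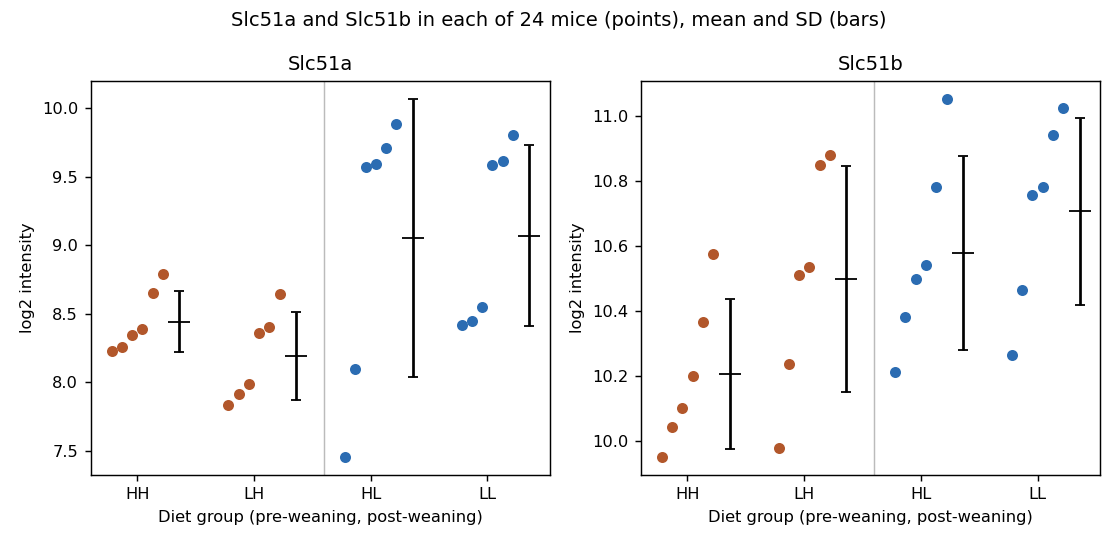
Log2 intensity of Slc51a (left) and Slc51b (right) in each of 24 mice by diet group, with the group mean and SD (n = 6) to the right of the points; the grey line parts the high (HH, LH) from the low (HL, LL) post-weaning diet. For Slc51a the 12 high-diet mice lie at 7.84 to 8.79 and the low-diet mice fall on either side of a gap between 8.79 and 9.57, while for Slc51b the points of all groups overlap.

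The mean level of Slc51a was 8.32 ± 0.30 with the high and 9.06 ± 0.82 with the low post-weaning diet (SD, n = 12 each), a log2 difference of -0.74. By group, Slc51a averaged 8.44 ± 0.23 among HH, 9.05 ± 1.02 among HL, 8.19 ± 0.32 among LH and 9.07 ± 0.66 among LL mice (SD, n = 6 each). From high to low the order was LL, HL, HH and LH, and neighbours in it differed by less than the larger of their SDs. Among 8901 genes detected on at least 12 arrays the median difference was -0.01 and most lay between -0.19 and 0.18. Of these, 1 gene, Clps, a pancreatic cofactor of lipase named for this after its value was seen, had a difference below that of Slc51a. As Slc51a was chosen for this difference, its place is no evidence for it.
Over all probes, 0 of 31298 passed the limma test for the post-weaning diet at an adjusted p under 0.05 (0%, smallest adjusted p = 0.944), and 1322 (4.22%) had an unadjusted p under 0.05.

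The split of Slc51a depended on the normalization. After background correction by neqc the same number of low-diet mice, 7, lay above all high-diet mice, with the widest gap again below these 7 and a nearly equal gap of 0.99 above HL 8. With arrays scaled to equal medians and no quantile normalization, 4 did, the widest gap of 0.47 lay below the 2 highest mice, and high-diet mice reached 9.24. The difference between post-weaning diets was -0.98 and -0.55 under these 2 settings. The arrays of HL 2A, LL 3B and LH 6A had the smallest shares of probes detected, 21.2%, 21.9% and 23.5%, against up to 37.0% on other arrays. Slc51a was at 9.57, 9.59 and 8.40 on them. Without these 3 arrays, 5 of 10 low-diet mice lay above all 11 high-diet mice, and the difference was -0.66.

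Slc51b, the beta subunit, without which the alpha subunit does not reach the cell membrane, differed less and without a split. The lowest, median and highest levels among HH mice were 9.95, 10.15 and 10.58, among HL mice 10.21, 10.52 and 11.05, among LH mice 9.98, 10.52 and 10.88, and among LL mice 10.27, 10.77 and 11.03. The groups overlapped, with 3 low-diet mice above all high-diet mice and 5 high-diet mice below all low-diet mice. The mean was 10.35 ± 0.32 with the high and 10.64 ± 0.29 with the low post-weaning diet (SD, n = 12 each), a log2 difference of -0.29, and 10 of 12 high-diet mice lay below the low-diet mean. By group Slc51b averaged 10.21 ± 0.23 among HH, 10.58 ± 0.30 among HL, 10.50 ± 0.35 among LH and 10.71 ± 0.29 among LL mice (SD, n = 6 each), and neighbours in the order LL, HL, LH and HH differed by less than the larger of their SDs. The widest gap among the 24 values was 0.18. Of the 8901 detected genes, 86 had a difference below that of Slc51b. Under median scaling the difference was -0.18.

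Fabp6, the carrier protein of the ileal enterocyte, lay just above background. It was detected in 8 of 12 mice on the high and 9 of 12 on the low post-weaning diet. The lowest, median and highest levels among HH mice were 7.22, 7.45 and 7.83, among HL mice 7.15, 7.54 and 7.66, among LH mice 7.27, 7.46 and 7.77, and among LL mice 7.52, 7.56 and 8.14. The 2 highest mice were LL 13A at 8.14 and LL 13 at 7.97, and otherwise the groups overlapped. The mean was 7.48 ± 0.19 with the high and 7.59 ± 0.26 with the low post-weaning diet (SD, n = 12 each), a difference of -0.11, which was -0.30 after neqc.

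Slc10a2, which takes bile acids up in the ileum, was detected on 0 arrays, with levels of 6.95 to 7.22 with the high and 6.82 to 7.14 with the low post-weaning diet. Its values lay among those of undetected probes in both, so no difference is given. Of 20 measured genes in a list of other ileal and small intestinal enterocyte markers, 7 were detected on at least 12 arrays and 7 on 0. The 7 detected genes were Slc5a1 and Dpep1 on 24 arrays, Amn and Rbp2 on 22, Anpep and Ada on 21 and Slc7a9 on 18. Apoa4, Lct, Cubn and Gata4, which mark the small intestine, were among the 7 on 0 arrays. The colon markers Car1, Guca2a and Krt20 were detected on all 24. The probes of Epcam, a general epithelial marker, and Fxyd4, a colon marker, were detected on 0 arrays, although Krt8, Cdh1 and Vil1 of the epithelium were detected on all 24.

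Nr1h4, the bile acid receptor FXR, was detected in every mouse and had overlapping levels in all groups. The lowest, median and highest levels among HH mice were 10.55, 10.86 and 11.20, among HL mice 10.28, 11.06 and 11.79, among LH mice 10.39, 11.07 and 11.36, and among LL mice 10.59, 10.96 and 11.28. The ranges overlapped throughout, and HL held both the lowest and the highest mouse, HL 10 and HL 14A. The mean was 10.92 ± 0.33 with the high and 10.97 ± 0.39 with the low post-weaning diet (SD, n = 12 each), a difference of -0.06, which was 0.05 under median scaling.

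Gpbar1, the membrane receptor, was detected on 0 arrays, at 6.90 to 7.12 with the high and 6.94 to 7.23 with the low post-weaning diet. Of the 6 measured L cell genes, 5 were detected on at least 12 arrays, among them Gcg and Pyy, which encode proglucagon and peptide YY, on all 24. The FXR targets Nr0b2 and Fgf15 were detected on 0 arrays as well. Nr0b2 was at 6.92 to 7.25 with the high and 6.90 to 7.42 with the low post-weaning diet, and Fgf15 at 7.02 to 7.27 and 6.94 to 7.27 on the high and the low diet. The levels of these 3 genes lay among those of undetected probes, apart from the mouse with Nr0b2 at 7.42, and give no order of the groups. A transcript below the detection limit of the array is not shown to be absent.

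**Figure D2:**
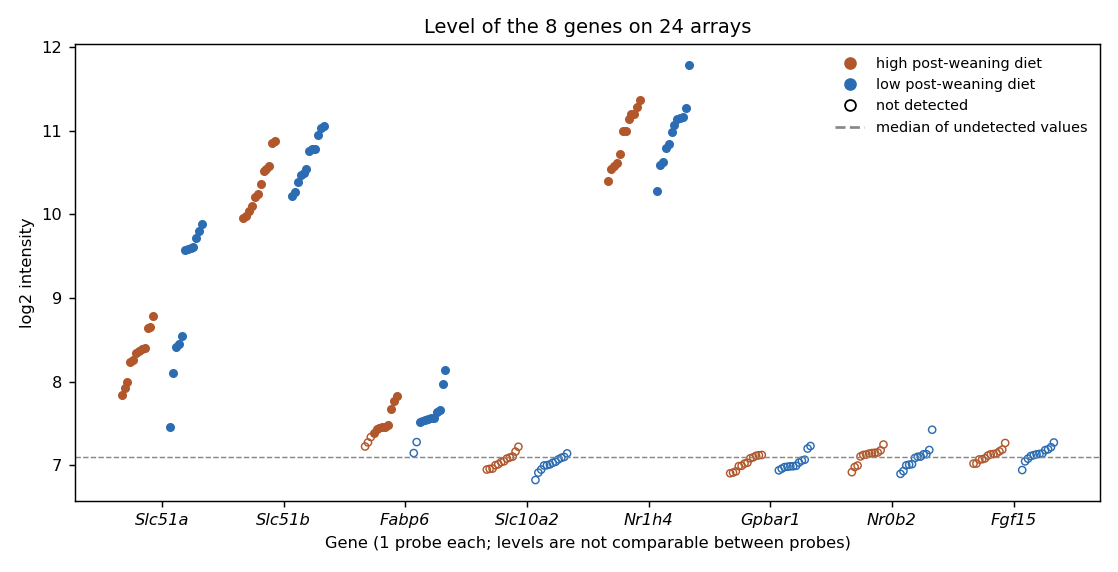
Log2 intensity of the 8 genes on 24 arrays, with mice on the high post-weaning diet left of those on the low diet and sorted by level within each; open circles are not detected and the dashed line is the median of undetected values, 7.09. Slc51a, Slc51b and Nr1h4 lie above this line on all 24 arrays, Fabp6 is detected on 17, and the other genes lie about the line on every array.

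In 4 cases a mouse on the high and a mouse on the low post-weaning diet carried the same label of the mother, 10 and 10B among HH and HL, and 13 and 3B among LH and LL mice. The series states that samples came from different litters, and whether such mice were littermates is not known. Slc51a was at 8.26 in HH 10 and 9.60 in HL 10, at 8.39 in HH 10B and 9.89 in HL 10B, at 7.84 in LH 13 and 9.61 in LL 13, and at 7.92 in LH 3B and 9.59 in LL 3B. The high-diet mouse was lower in 4 of 4 pairs. The differences were -1.34, -1.49, -1.78 and -1.67, with a mean of -1.57 ± 0.19 (SD, n = 4 pairs). Under median scaling the high-diet mouse was also lower in 4 of 4 pairs, with differences of -1.69 to -0.63.
The low-diet mice of these 4 pairs were all among the 7 high ones, and the 5 low-diet mice that lay with the high-diet mice were in no pair.
In the same pairs the other genes had no shared direction. Slc51b was lower in the high-diet mouse in 2 of 4 pairs (mean difference -0.03 ± 0.23, SD), Fabp6 in 3 of 4 (-0.21 ± 0.35) and Nr1h4 in 1 of 4 (0.24 ± 0.47). These pair values come from the contrast by which the genes were chosen and are not tested.

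**Figure D3:**
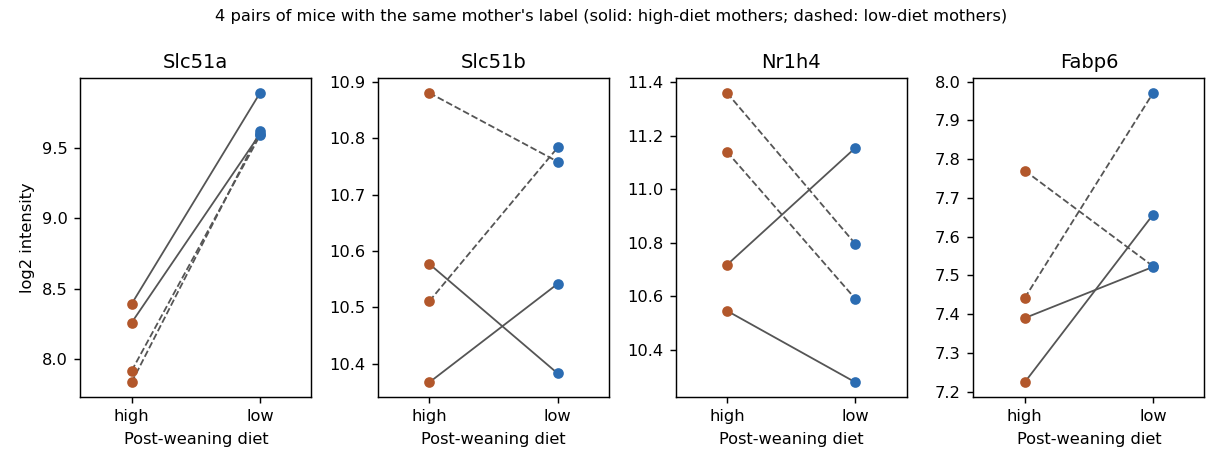
Log2 intensity of 4 genes in 4 pairs of mice whose mothers carry the same label, with the mouse on the high post-weaning diet at the left and the mouse on the low diet at the right of each line; solid lines are pups of high-diet mothers and dashed lines pups of low-diet mothers. Slc51a is lower in the high-diet mouse in 4 of 4 pairs, with differences of -1.78 to -1.34, whereas the lines of Slc51b, Nr1h4 and Fabp6 run both ways.

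The pre-weaning diet, which was not used to choose the genes, was tested with limma over all probes that passed a filter on dim probes. Over 31308 probes, 0 passed an adjusted p under 0.05 (0%, smallest adjusted p = 0.9995), and 849 (2.71%) had an unadjusted p under 0.05. Of the 8 genes, 5 passed this filter, Slc51a, Slc51b, Nr1h4, Fabp6 and Fgf15, and 0 passed the test. The filter does not ask for detection, and Fgf15 was detected on 0 arrays.
Slc51b was at 10.39 ± 0.32 in pups of high-diet and 10.60 ± 0.32 in pups of low-diet mothers (SD, n = 12 each), a difference of -0.21 with a 95% confidence interval of -0.45 to 0.03 (limma, unadjusted p = 0.0804, adjusted p = 0.9995). Under median scaling this difference was -0.0035. Fabp6 was at 7.47 ± 0.19 and 7.61 ± 0.25 in pups of high-diet and of low-diet mothers (SD, n = 12 each), with an interval of the difference of -0.32 to 0.04 around -0.14, and the difference was -0.38 after neqc. Slc51a was at 8.75 ± 0.77 in pups of high-diet and 8.63 ± 0.68 in pups of low-diet mothers (SD, n = 12 each), a difference of 0.12 (interval -0.39 to 0.63), which was 0.23 under median scaling. Nr1h4 was at 10.93 ± 0.41 in pups of high-diet and 10.96 ± 0.31 in pups of low-diet mothers (SD, n = 12 each), a difference of -0.03 (interval -0.33 to 0.28), which was 0.18 under median scaling. The interval of Slc51a leaves room for a difference of 0.63, so equal levels are not shown.

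The interaction asks whether the difference between post-weaning diets was the same in pups of both kinds of mothers. It gave 0 of 37654 probes with limma (0%, smallest adjusted p = 0.9999), with 1107 (2.94%) at an unadjusted p under 0.05. For Slc51a the difference of HH minus HL exceeded that of LH minus LL by 0.27, with a 95% confidence interval of -0.75 to 1.28 and adjusted p = 0.9999. For Slc51b it was -0.16 (interval -0.64 to 0.31), for Nr1h4 -0.13 (interval -0.73 to 0.47) and for Fabp6 0.22 (interval -0.14 to 0.57). Each interval holds 0. Under median scaling the interactions of Slc51b and Nr1h4 were 0.39 and 0.43, so their signs are not settled. That of Slc51a was 0.66 under median scaling and 0.62 after neqc, both above the deposited 0.27, and -0.05 without the mouse HL 8. That of Fabp6 was 0.34 under median scaling and 0.58 after neqc. The interval of Slc51a is wider than its difference between post-weaning diets, so a dependence of that difference on the mother's diet of the same size would not be detectable here.

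**Figure D4:**
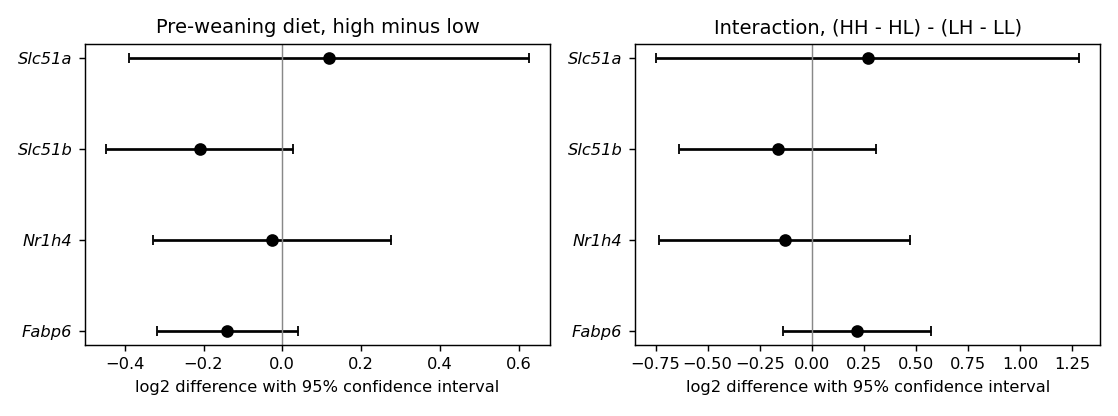
Log2 difference by pre-weaning diet (left, high minus low) and interaction of both diets (right, HH minus HL less LH minus LL) for the 4 genes detected on over 12 arrays, as points with 95% confidence intervals from limma over 24 arrays. Every interval crosses 0, and those of Slc51a are the widest, from -0.39 to 0.63 and from -0.75 to 1.28.

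The spread of the genes within groups was compared next. The pooled SD within the 4 groups was 0.64 for Slc51a, 0.29 for Slc51b, 0.38 for Nr1h4 and 0.22 for Fabp6. The deposited values of Slc51a lay on either side of a gap, which was less clear under median scaling. Its relations with other measures were therefore tested within the 12 mice on the high post-weaning diet, after subtracting the HH and LH means. There Slc51a and Slc51b, the subunits of the same dimer, had Pearson's r = -0.19 (permutation p = 0.556) and Spearman's rho = -0.08 (permutation p = 0.801), and r = 0.07 without the 2 mice farthest from the median. With Nr1h4 Slc51a had r = 0.24 (permutation p = 0.45), rho = 0.10 (permutation p = 0.764) and r = 0.41 without those 2 mice. Over all 24 mice, after subtracting group means, Slc51b and Nr1h4 had r = 0.16 (permutation p = 0.464), rho = 0.15 (permutation p = 0.485) and r = -0.11 without the 2 mice farthest from the median. Of 13 relations of Slc51a or Slc51b with the other genes, the marker lists and the share of probes detected, 0 passed after Benjamini-Hochberg adjustment (smallest adjusted p = 0.862). Under median scaling 11 of the 13 passed, and those of Slc51a with Fabp6 (r = 0.32) and with the colonocyte list (r = 0.52) did not. Over all 13, r was then 0.32 to 0.85, all above 0, so these relations depend on the normalization.

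The genes whose levels over the 24 mice were most like those of Slc51a, after subtracting group means, were Neurl1a (r = 0.84), a ubiquitin ligase gene, Hkdc1 (r = 0.82), which encodes a hexokinase, Slco2b1 (r = 0.81), an organic anion transporter that carries bile acid conjugates among other anions, and Ckb (r = 0.79), which encodes brain-type creatine kinase and is high in intestinal epithelium. Meis1, a homeobox gene, Edn2, which encodes endothelin-2, Aatk and Gpt, an alanine transaminase gene, followed at 0.79, 0.79, 0.78 and 0.77. These are the 8 highest of 8900 genes compared, given as a description, and all points share the arrays and their normalization. The lowest were Cyp51 (r = -0.80), an enzyme gene of cholesterol synthesis, Nox1 (r = -0.76), an epithelial NADPH oxidase gene, Pgk1 (r = -0.76), a glycolysis gene, and Snrpd3 (r = -0.75), a spliceosome gene.
In the mice of the high post-weaning diet alone r was nearer 0 for some of these genes and of the other sign for Nox1 and Edn2. Within the 12 high-diet mice Nox1 had r = 0.34 and Edn2 -0.08 with Slc51a, Neurl1a 0.16, Cyp51 -0.22, Snrpd3 -0.07, Pgk1 -0.45 and Gpt 0.39. Hkdc1 had 0.78, Meis1 0.76, Slco2b1 0.74, Aatk 0.63 and Ckb 0.54. Slco2b1 was at 8.99 ± 0.29 with the high and 9.15 ± 0.45 with the low post-weaning diet (SD, n = 12 each), and Hkdc1 at 7.60 ± 0.13 and 7.91 ± 0.34 on the high and the low diet. By the same measure Slc51b had r = 0.31, Fabp6 0.05 and Nr1h4 -0.03 with Slc51a.

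**Figure D5:**
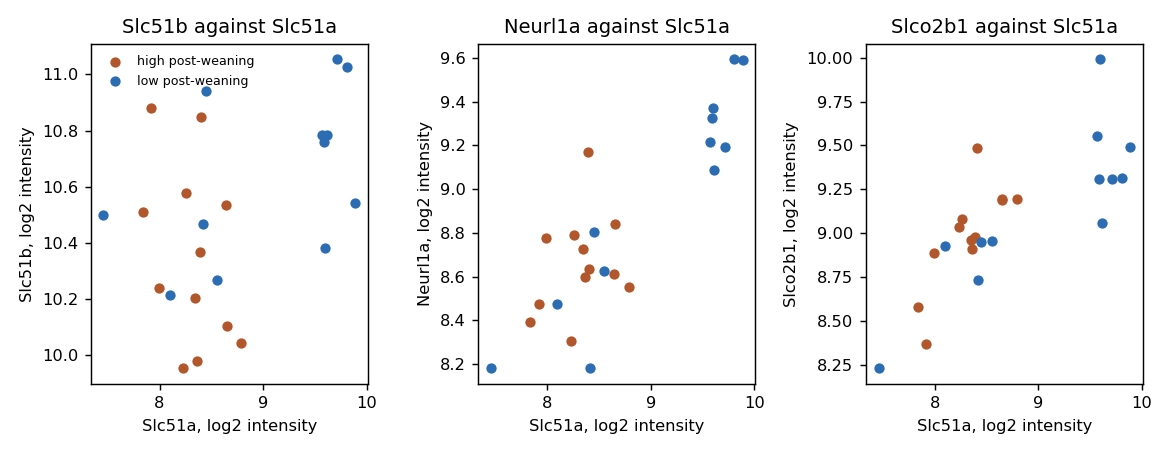
Slc51b, Neurl1a and Slco2b1 (vertical axes, log2 intensity) against Slc51a (horizontal axis, log2 intensity) in 24 mice, each point 1 mouse, coloured by post-weaning diet. The points of Neurl1a (centred r = 0.84) and Slco2b1 (0.81) lie along a slope, and those of Slc51b (0.31) are spread widely at any level of Slc51a.

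The genes most like Slc51b were others. They were Atp9a (r = 0.73), a phospholipid flippase gene, Ppp1r14b (0.68), Cdk16 (0.67), Abcb6 (0.67), a porphyrin transporter gene, Mob2 (0.67), Tmbim1 (0.67), Dhrs4 (0.65) and Gm3336 (0.64). The lowest were R3hdm1 (-0.71), Il7r (-0.70), the receptor chain of interleukin-7 on lymphocytes, Adal (-0.68) and Cenpq (-0.68). None of the 12 genes named for Slc51b is among the 12 named for Slc51a. Abcc3, which also exports bile acids across the basolateral membrane, had r = 0.45 with Slc51b and 0.26 with Slc51a.

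Among other genes of bile acid transport and binding, 5 of 16 measured were detected on at least 12 arrays, and 0 passed the limma test for the post-weaning diet, against 0% of all probes. Of these 5 genes 2 were higher and 3 lower on the high diet, with a median difference of -0.01 beside -0.01 for all 8901 detected genes. The differences were 0.18 for Atp8b1, a lipid flippase gene, -0.16 for Slco2b1, 0.07 for Abcc4, a basolateral exporter gene, -0.02 for Myo5b, a motor gene of apical transport, and -0.01 for Abcc3. Of the 16 genes 10 were detected on 0 arrays. Among them were Abcc2, Abcb11, Slc10a1 and Fabp1, which serve the liver or the small intestine, but also Abcb1a and Abcg2.
Of 14 measured nuclear receptors and partners 8 were detected on at least 12 arrays, 3 higher and 5 lower, and 0 passed. Rxrb, a partner of FXR and of the vitamin D receptor, had a difference of -0.30, Nr1h3 (LXR alpha) -0.13, Nr1i2 (PXR) -0.11 and Vdr -0.07. Vdr itself was detected on all 24 arrays, and Rxra, another gene of this list, on 0. Of 14 genes of the FGF15 receptor and of bile acid synthesis, 3 were detected on at least 12 arrays, Cyp7b1 with a difference of 0.18, Cyp27a1 with -0.14 and Hsd3b7 with -0.08. Cyp7a1, the rate-limiting enzyme of bile acid synthesis in the liver, and Fgfr4 were detected on 0 arrays.
For the pre-weaning diet and the interaction 0 genes of these 3 lists passed, against 0% of all probes, with smallest adjusted p = 0.9995 and 0.9999 from limma. The smallest unadjusted p for the pre-weaning diet was that of Hsd3b7, with a difference of 0.14 (limma, unadjusted p = 0.0513). Slco2b1 had a difference of 0.18 by pre-weaning diet and Abcc4 an interaction of 0.27.

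Marker lists of other tissue parts were read beside Slc51a. The mean level of 16 detected colonocyte markers ranged from 10.93 to 12.04 with the high and 10.88 to 12.07 with the low post-weaning diet, and that of 11 detected general epithelial markers from 11.12 to 12.02 and from 11.26 to 11.81 on the high and the low diet. On the high diet 8 of these 16 markers lay higher and 8 lower. The 7 detected small intestinal markers ranged from 7.90 to 8.29 with the high and 7.90 to 8.48 with the low diet, with 2 higher and 5 lower. Slc7a9, an amino acid transporter gene, had a difference of -0.34, Dpep1 of -0.24 and Amn, a part of the vitamin B12 receptor, of -0.23.
By post-weaning diet most detected genes of the smooth muscle and pancreas lists had lower and most of the inflammation list higher levels on the high diet, and 0 of their genes passed the limma test. Of their 10, 24 and 6 measured genes, 0 were at 0 arrays. All 9 detected smooth muscle markers were lower on the high diet, with list means of 10.29 to 11.22 with the high and 10.49 to 11.56 with the low diet. Of 20 detected colitis genes 18 were higher on the high diet, among them Il1b by 0.64 and Mmp3 by 0.59. The list means were 8.96 to 10.53 with the high and 8.82 to 10.23 with the low diet. The median difference over all 8901 detected genes was -0.01. By pre-weaning diet the colitis and smooth muscle lists leaned the other way. There 2 colitis genes were higher and 18 lower on the high diet, and 8 smooth muscle markers higher and 1 lower. The pancreas list leaned the same way by both diets, with 0 detected genes higher and 2 lower on the high pre-weaning diet. A lean was thus seen by either diet, and not only by the post-weaning diet. Of the pancreas genes Clps and Cela1 were detected on at least 12 arrays. Their mean was 8.18 to 9.56 with the high and 8.22 to 11.33 with the low post-weaning diet. The part of muscle, inflammation or pancreatic tissue in the differences of Slc51a and Slc51b was not tested. Within the 12 high-diet mice, after subtracting group means, Slc51a had r = 0.07 with the smooth muscle list (permutation p = 0.846) and rho = 0.07 (permutation p = 0.835). With the colitis list it had r = 0.19 (permutation p = 0.606) and rho = 0.22 (permutation p = 0.485). Under median scaling r was 0.71 and 0.74 with these lists (adjusted permutation p = 0.0137 and 0.0124). Taken within mice of the same post-weaning diet, such values cannot bear on the difference between the diets. Of 6 measured Paneth cell markers 5 were detected on at least 12 arrays, with list means of 9.12 to 10.30 with the high and 9.03 to 9.77 with the low diet, and of 5 liver markers 1, Ttr, was, while Alb was detected on 0.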

How the data were processed

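RNA from the proximal colon of 24 mice was hybridized to 24 Illumina MouseWG-6 v2 arrays. The deposited raw signal intensities and detection scores were exported by the authors without normalization, and the deposited log2 values were quantile normalized by the authors in GeneSpring from those intensities. The same quantile normalization repeated here gave values within 0.000415 of those deposited. Quantile normalization gives every array the same distribution, and so can shift a probe on a dim array.

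Symbols came from the platform annotation, updated by gene ID to RefSeq, and 34885 probes had 1 symbol, 18 several and 10378 none given. Where a gene had several probes, the brightest stood for it. Probes were tested where they exceeded the 20th percentile of the array on at least 80% of the arrays of either diet level compared. For the interaction this had to hold in any of the 4 groups. limma 3.58.1 in R 4.3.3 fitted 1 mean for each of the 4 groups, with Benjamini-Hochberg adjustment over all probes kept. The fit was tested on simulated data. Relations used two-sided permutation tests with 100000 permutations (scipy 1.17.1).

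The 8 genes and all lists were chosen with earlier results of these data known. Genes most like Slc51a or Slc51b were, by rule, the 8 with the highest and the 4 with the lowest Pearson's r over the 24 mice among genes detected on at least 12 arrays; examples from lists were the up to 4 with the largest difference among genes detected on at least 12 arrays, and further list genes named for their function were picked after their values were seen. The labels name 20 mothers for 24 mice, and 4 pairs share a label. Deviations from the group means correlated at 0.40, 0.61, 0.0044 and -0.15 within these pairs. The main fit did not use the label as a block. With the label as a random replicate block, 1666 probes had an unadjusted p under 0.05 for the post-weaning diet (limma), against 1322 without it. The number of arrays limits the precision. The p-values rest on the spread between these mice, which were taken as independent although 4 pairs share a label. The chip of each array was not given in the sources used here.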

Additional observations from a re-analysis of the deposited data

How the results depend on the processing

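The counts of probes past an adjusted p of 0.05 stayed at 0 for both diets and the interaction under median scaling, neqc, no filter, a filter on probes detected on at least 6 arrays, the mother's label as a random replicate block and without each array in turn, and at 0 for the pre-weaning diet by the methods' t-test, which gave 998 probes unadjusted. The unadjusted counts were 560 (post-weaning), 221 (pre-weaning) and 182 (interaction) with the filter on detected probes, and 1280 for the pre-weaning diet without a filter. Without 1 array they ranged from 1076 to 2078 for the post-weaning diet (highest without LH 6A), from 748 to 1531 for the pre-weaning diet (highest without HL 2A) and from 974 to 1252 for the interaction.

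The post-weaning difference of Slc51a was -1.57 over the 4 pairs of the replicate block, -0.78 with the mother's label as a random replicate block (consensus correlation 0.12), and -0.90 (without HL 8) to -0.66 (without HL 10B) with 1 array left out. That of Slc51b ranged from -0.33 to -0.24, that of Nr1h4 from -0.13 to 0.02 (highest without HL 14A) and that of Fabp6 from -0.15 to -0.07. After neqc the post-weaning and pre-weaning differences of Fabp6 were -0.30 and -0.38, and the interactions of Slc51a and Fabp6 0.62 and 0.58. Signs turned under median scaling for the post-weaning (0.05) and pre-weaning (0.18) differences of Nr1h4 and the interactions of Slc51b (0.39) and Nr1h4 (0.43), over the 4 pairs for the post-weaning difference of Nr1h4 (0.24), and without 1 array for that difference, the pre-weaning difference of Nr1h4 (-0.11 to 0.0454), its interaction (-0.27 to 0.0281) and that of Slc51a (-0.0505, without HL 8, to 0.44). Those of Slc51a ranged from 0.03 to 0.28 and of Slc51b from -0.26 to -0.17 by pre-weaning diet. The cause was not tested. Under median scaling r was 0.66, 0.32 and 0.52 for Slc51a with Slc51b, Fabp6 and the colonocyte list, and 0.64 and 0.76 for Slc51b with the colitis list and the share of probes detected, each of opposite sign to the deposited values, and 0.84, 0.71, 0.74 and 0.69 for Slc51a with Nr1h4, the smooth muscle and colitis lists and the share detected, and 0.85, 0.57, 0.81 and 0.78 for Slc51b with Nr1h4, Fabp6, the colonocyte and the smooth muscle lists, past the threshold.

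Filters for the post-weaning counts, leaving out the 3 arrays with the fewest detected probes and the order of the mice under other scalings were chosen after seeing the data. Other probes of a gene could not be tried, since each of the 8 genes has 1 probe, and a chip block was not run. The alternatives were not run for Slc10a2, Nr0b2, Fgf15 and Gpbar1, which were at background in all groups. With 6 mice in each group, small differences are not detectable.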
